A study of Salmo salar with 189 samples.

Results

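The hours of darkness that followed a short day were compared with the same clock hours in fish that had been given no light that day. The fish were Atlantic salmon at the pre-smolt stage (about 45 g), raised in constant light. They were moved to a light-dark cycle of 8 h light and 16 h dark (by the labels) for 8 weeks. The water was at 14 °C in the tanks they were sampled from, and they were fasted from 48 h before the first sampling point. The DD group was kept in constant darkness and sampled at CT9, CT13, CT17 and CT21 (circadian time, hours after the time at which lights would have come on). The LD group was kept in the light-dark cycle and sampled at ZT9, ZT13, ZT17 and ZT21 (zeitgeber time, hours after lights on). These hours were chosen because both groups were then in the dark, and they gave 72 of the 189 samples in the series. In each of 3 tissues, namely gill, optic tectum (OT) and saccus vasculosus (SV), 12 DD samples were set against 12 LD samples, with 3 fish per group at each hour. By the labels, lights had gone off 25, 29, 33 and 37 h before sampling in DD, against 1, 5, 9 and 13 h in LD. The study's methods give a shorter light phase, under which these hours are dark as well. DD fish carried names of arm B and LD fish names of arm A, the methods describe 2 tanks, and DD fish were sampled later in the fast, so that the missing day, the arm or tank and the longer fast cannot be told apart. The labels give no assay run, so a difference in processing between the groups cannot be told apart from these either. The 72 samples came from 25 fish, of which 23 gave all 3 tissues.

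The circadian clock of vertebrates is a transcriptional feedback loop. The activators Clock and Arntl1 (also called Bmal1) switch on the period (Per) and cryptochrome (Cry) genes, whose proteins then repress the activators. In a second loop the ROR factors activate, and the REV-ERB factors Nr1d1 and Nr1d2 repress, the Arntl1 genes, while the PAR bZIP factors Dbp, Tef and Hlf carry the rhythm to output genes. Light can act on the clock by inducing some Per and Cry genes, and Per2 is well known as a light-responsive gene in zebrafish. Salmonids underwent an extra genome duplication, and many clock genes are therefore present as a pair of duplicates (Ss4R pairs). Transcripts are named here by gene and chromosome, as in the study.

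The OT is a part of the midbrain that receives visual input, the SV is a small organ on the floor of the hypothalamus of fish, and the gill serves gas and ion exchange. Expression was measured with a NanoString CodeSet, a set of barcoded probes that are counted one by one on the target RNA. The table listed 48 transcripts, of which the OT had values for 45 and the SV for 40, with 41 and 38 of these tested. For the gill, 40 of 46 were tested. Those left out were not listed by the study as expressed in the tissue or, for CKId-Ch1 and CKIe-Ch28, not listed as part of the CodeSet. Because the CodeSet holds clock genes only, the tissues could not be checked against marker genes. In bulk tissue, fewer cells that express a gene and less RNA per cell cannot be told apart.

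The probes each recognise a stretch of 100 bases, shown here from the study's probe design for Per2-Ch3, Per3-Ch22 and Per1-Ch11. The stretches of the duplicates Per2-Ch14 and Per1-Ch4 are not shown, and members of a pair were not compared in sequence. Per2-Ch3 (gene ID 106599551, chromosome ssa03) is read at bases 4240 to 4339 of its transcript, Per3-Ch22 (106583133, ssa22) at 3107 to 3206 and Per1-Ch11 (106563389, ssa11) at 3723 to 3822, each 5′ to 3′ on the transcript and without capitals, since no motif was marked.
Per2-Ch3: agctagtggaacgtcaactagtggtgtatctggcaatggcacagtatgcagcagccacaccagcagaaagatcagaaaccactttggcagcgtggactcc
Per3-Ch22: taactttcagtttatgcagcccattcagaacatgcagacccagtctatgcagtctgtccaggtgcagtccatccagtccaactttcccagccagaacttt
Per1-Ch11: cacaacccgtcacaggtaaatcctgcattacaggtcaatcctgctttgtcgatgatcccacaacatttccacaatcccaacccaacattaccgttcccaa

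The deposited values of each sample were whole multiples of 1 smallest step, and this step differed between the groups in places. Read as the signal of 1 barcode count, the step gives inferred total counts, which entered no test. In the OT the step was 0.80 to 1.01 in DD and 0.77 to 1.37 in LD, with inferred totals of 32104 to 50352 in DD and 27832 to 44887 in LD. In the SV the step was 0.93 to 1.63 in DD against 0.72 to 0.95 in LD, and inferred totals were 5315 to 17354 against 10592 to 20679. In the gill it was 0.75 to 1.35 in DD and 0.89 to 2.13 in LD, with inferred totals of 5284 to 11812 and 3868 to 9326. The plot of signal per inferred count shows the SV samples of DD at CT9 and 1 gill sample of LD at ZT9 (fish A11) standing apart. Differences are log2(signal + 1), DD minus LD. Where the median over all transcripts was itself away from 0, many values are also given with every sample first divided by the geometric mean of its expressed transcripts (called scaling below). Since these are the clock transcripts under test, scaling sets their mean difference to 0, and a median near 0 after scaling follows from it. A scaled difference is therefore relative to the mean of the tested transcripts.

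**Figure D1:**
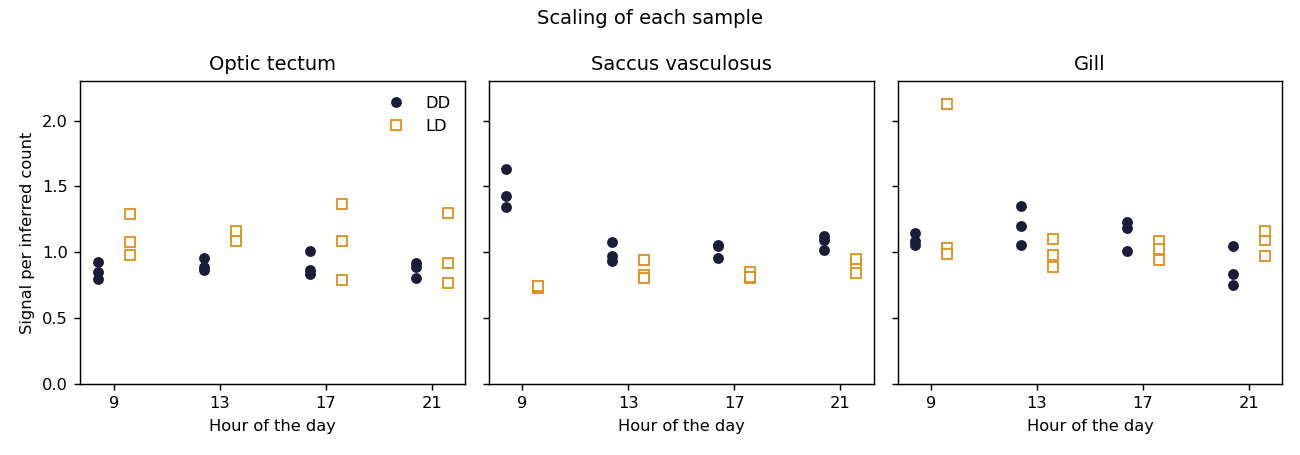
Signal per inferred barcode count (y axis) of each sample at hours 9 to 21 (x axis, hour of the day) in OT, SV and gill, 1 point per fish, DD and LD in separate colours. DD samples of the SV lie between 0.93 and 1.63 and LD samples between 0.72 and 0.95, while 1 gill sample of LD at hour 9 reaches 2.13.

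In the OT, the Per2 duplicates had the largest differences in level over the dark hours, and both were lower in DD. Per2-Ch3 had a median signal of 82.1 in DD (54.4 to 104 over 12 fish), against 120 in LD (75.4 to 167). The difference was -0.54 ± 0.10 (SE, n = 12 fish per group), a ratio of 0.69, with an adjusted p of 0.000155 in limma. The medians of the 3 fish at hours 9, 13, 17 and 21 were 104, 75.3, 95.8 and 73.0 in DD, against 133, 124, 128 and 106 in LD. Over all 41 transcripts, the 3 DD and 3 LD fish did not overlap in 12 (29.3%) at hour 9, 10 (24.4%) at hour 13, 10 (24.4%) at hour 17 and 18 (43.9%) at hour 21. For Per2-Ch3 at hours 9 and 13 the highest DD fish (104 and 84.2) lay below the lowest LD fish (115 and 106), at hour 17 the groups overlapped, and at hour 21 the highest DD fish (75.37) was level with the lowest LD fish (75.42). In the fish that stayed in light at these hours (LL, arm A, sampled after the LD fish), Per2-Ch3 ranged from 128 to 233, which overlaps LD. LL was not tested against DD or LD.

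Per2-Ch14 had a median of 90.7 in DD (52.9 to 123), against 123 in LD (74.4 to 262), a difference of -0.48 ± 0.12 (adjusted p = 0.00571 in limma). At hour 9 the DD fish had signals of 69.5, 114 and 123, and the LD fish 153, 167 and 262. At hour 13 these were 52.9, 64.1 and 110 in DD and 123, 169 and 179 in LD, and the groups did not overlap at either hour. At hour 17 the order was turned, with 103, 118 and 119 in DD above 76.5, 87.1 and 94.3 in LD, and at hour 21 the groups lay close, with 68.5, 73.7 and 78.6 in DD and 74.4, 77.9 and 123 in LD. Without hour 13 the difference in level was -0.27, with an adjusted p of 0.287 in limma, and its adjusted p was 0.208 in the exact permutation test. In LL the 12 fish at these hours ranged from 196 to 474, again without a test against DD or LD.

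In all, 3 of 41 transcripts (7.32%) passed the limma test for level in the OT, and all 3 were lower in DD. The ranges of the 12 DD and 12 LD fish overlapped in each of the 41 transcripts. The Per1 duplicates, which repress the activators, differed in level by 0.015 ± 0.078 (Per1-Ch4) and 0.00043 ± 0.078 (Per1-Ch11). After scaling, 7 transcripts passed for level, 4 of them higher in DD (Per3-Ch22, Tef-Ch3, Tef-Ch6 and Rora-Ch10) and 3 lower (Per2-Ch3, Per2-Ch14 and Cry3-Ch22).

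**Figure D2:**
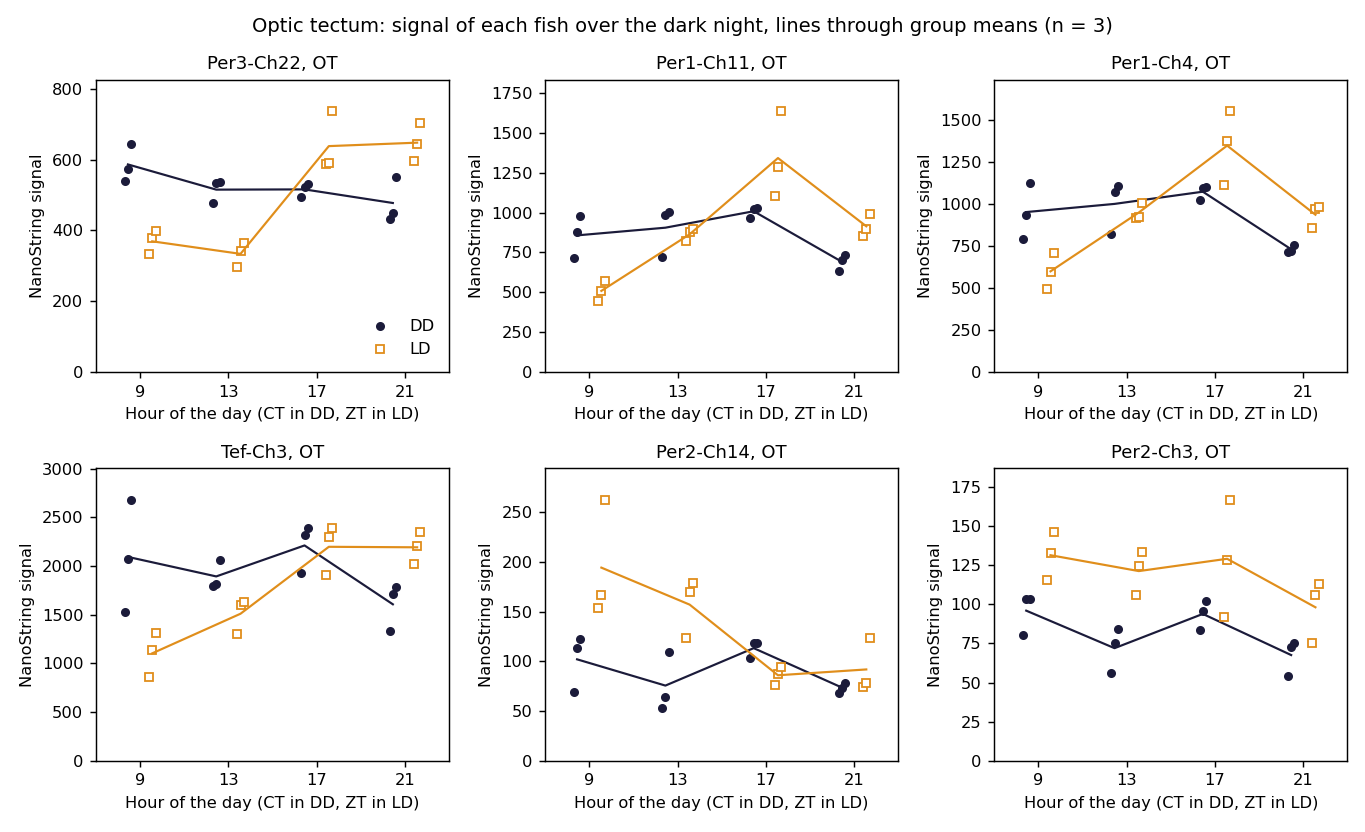
Signal (y axis) of Per3-Ch22, Per1-Ch11, Per1-Ch4, Tef-Ch3, Per2-Ch14 and Per2-Ch3 in the OT at hours 9 to 21 (x axis), 1 point per fish and a line through the group means, n = 3 fish per group and hour. Both Per2 transcripts lie lower in DD at hours 9 and 13, and the other 4 start above LD and end below it.

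The course through the dark hours was taken as the mean of hours 17 and 21 minus the mean of hours 9 and 13 on the log2 scale. In LD, 26 of 41 transcripts had a course above 0, whereas in DD 9 of 41 did, with medians of -0.12 in DD and 0.07 in LD. The difference in course passed the test in 15 of 41 transcripts (36.6%), with 14 lower in DD and 1 higher, and the limma test of whether the difference between DD and LD depended on the hour passed in 12 of 41 (29.3%). The median difference in course over all 41 transcripts was -0.24, and after scaling, which sets the mean difference to 0, it was 0.03. After scaling, 18 of 41 transcripts (43.9%) passed, 9 higher and 9 lower in DD, and 10 transcripts were called both as deposited and after scaling.

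Per3-Ch22, a Per gene with no duplicate in the table, had the smallest p. Its signals at hour 9 were 540, 573 and 645 in DD and 332, 378 and 398 in LD, and at hour 13 they were 477, 533 and 536 in DD and 295, 341 and 365 in LD. At hour 17 they were 495, 522 and 530 in DD and 586, 591 and 737 in LD, and at hour 21 they were 433, 449 and 550 in DD and 594, 645 and 704 in LD. The groups were apart at each of the 4 hours, DD above LD at the first 2 hours and below it at the last 2. Over all 41 transcripts the groups were apart in 29.3%, 24.4%, 24.4% and 43.9% at these hours, in either direction. Among these, DD lay above LD in 10, 3, 2 and 2 transcripts and below it in 2, 7, 8 and 16. Its course was -0.15 ± 0.10 in DD and 0.87 ± 0.10 in LD, a difference of -1.02 ± 0.14 (adjusted p = 1.43e-06 in limma), and after scaling -0.76 ± 0.11 (adjusted p = 1.20e-05).

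Per1-Ch11 had signals of 712, 879 and 980 in DD at hour 9, against 448, 506 and 573 in LD. At hour 13 the groups overlapped (723, 987 and 1005 in DD, 819, 877 and 895 in LD), and at hour 17 DD lay lower, at 968, 1025 and 1032, against 1106, 1283 and 1636 in LD. At hour 21 DD fish had 636, 705 and 732, and LD fish 853, 896 and 993. The groups were thus apart at 3 hours (shares over all transcripts as given for Per3-Ch22), and the mean of the 3 fish spanned 691 to 1008 in DD and 509 to 1342 in LD. The difference in course was -0.80 ± 0.16 (adjusted p = 0.000341 in limma), and -0.53 ± 0.07 after scaling. Its duplicate Per1-Ch4 had a difference of -0.70 ± 0.16 (adjusted p = 0.000661), and -0.44 ± 0.07 after scaling, with signals of 793, 933 and 1125 in DD and 494, 592 and 709 in LD at hour 9, and of 710, 722 and 756 in DD and 856, 968 and 979 in LD at hour 21.

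The PAR bZIP duplicates Tef-Ch3 and Tef-Ch6 had a like pattern. Tef-Ch3 had 1524, 2078 and 2682 in DD at hour 9 against 860, 1134 and 1318 in LD, and 1331, 1710 and 1782 in DD at hour 21 against 2023, 2206 and 2350 in LD. At hour 17 the groups overlapped, with means of 2212 ± 247 in DD and 2198 ± 260 in LD (SD, n = 3). The differences in course were -0.84 ± 0.18 for Tef-Ch3 (adjusted p = 0.000559 in limma) and -0.72 ± 0.17 for Tef-Ch6 (adjusted p = 0.000793), and after scaling -0.58 ± 0.15 and -0.46 ± 0.13. Per2-Ch14 was the 1 transcript that passed with a higher course in DD as deposited. Its course was 0.11 ± 0.16 in DD and -0.96 ± 0.16 in LD, a difference of 1.07 ± 0.23 (adjusted p = 0.000559) and of 1.33 ± 0.23 after scaling.

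**Figure D3:**
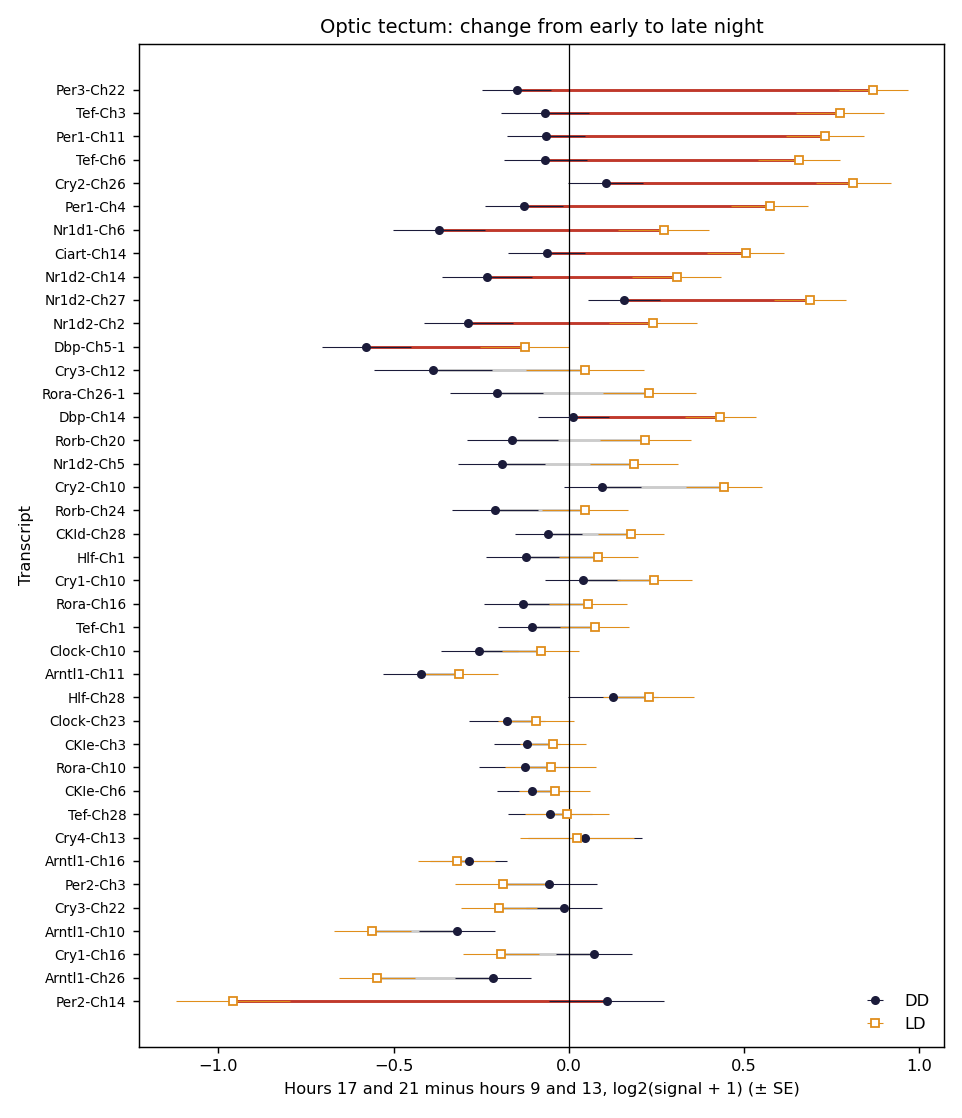
Change from hours 9 and 13 to hours 17 and 21 in the OT (x axis, log2(signal + 1), ± SE) for 40 tested transcripts (y axis), DD and LD as separate points joined by a line that is red where the difference between them passed the threshold. In the transcripts called lower, DD points lie near or below 0 and most LD points above it, and Per2-Ch14 stands out with LD at -0.96.

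By role, the counts stand beside 15 of 41 transcripts (36.6%) called for course over the whole table, 14 of them lower, and a median difference of -0.24. The repressors of the core loop (Per, Cry1, Cry2 and Ciart) held 6 of the calls among their 10 members, 5 with a lower course in DD and 1 higher, with a median difference of -0.46. Besides the Per genes these were Cry2-Ch26 (-0.71 ± 0.15, after scaling -0.44 ± 0.08), a cryptochrome of the repressor kind, and Ciart-Ch14 (-0.57 ± 0.16, after scaling -0.31 ± 0.09), which encodes a repressor of the activators. Of the 5 REV-ERB transcripts 4 passed, all lower (median -0.53), among them Nr1d1-Ch6 (-0.64 ± 0.18, after scaling -0.38 ± 0.13). In the exact permutation test neither Nr1d1-Ch6 (adjusted p = 0.0597) nor Nr1d2-Ch2 (adjusted p = 0.0562) passed. Of the 8 PAR bZIP transcripts 4 passed, all lower (median -0.31), which were both Tef transcripts above and both Dbp transcripts, Dbp-Ch5-1 (-0.45 ± 0.18) and Dbp-Ch14 (-0.42 ± 0.14). Neither Dbp transcript passed after scaling, at -0.19 ± 0.10 (adjusted p = 0.139) and -0.16 ± 0.07 (adjusted p = 0.0705), and Dbp-Ch5-1 had an adjusted p of 0.118 in the exact permutation test. None of the 6 activators passed.

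After scaling, when 18 of 41 transcripts passed (9 higher, 9 lower), the repressors had 3 higher and 5 lower, the REV-ERB factors 2 lower, the PAR bZIP factors 2 lower, and 3 of 6 activators passed with a higher course in DD. These were Arntl1-Ch26 (0.59 ± 0.08), Arntl1-Ch10 (0.50 ± 0.10) and Arntl1-Ch16 (0.30 ± 0.08), against 0.33 ± 0.15, 0.24 ± 0.15 and 0.03 ± 0.16 as deposited. The scaled values are relative to the mean difference in course over all 41 transcripts, which was -0.26 as deposited. Per2-Ch14, Per3-Ch22, Per1-Ch11, Per1-Ch4, Tef-Ch3, Tef-Ch6, Cry2-Ch26, Ciart-Ch14, Nr1d1-Ch6 and Nr1d2-Ch27 were called under both scalings, in the same direction. Of these, Nr1d1-Ch6 did not pass the exact permutation test.

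At single hours, 16 of 164 tests (9.76%) passed in the OT, and 9 of these were at hour 9, by the labels 25 h after lights off in DD and 1 h after in LD. At that hour 8 transcripts were higher in DD than in LD, Tef-Ch3 (0.91 ± 0.18, a ratio of 1.88), Tef-Ch6 (0.86 ± 0.17), Per1-Ch11 (0.75 ± 0.16), Per1-Ch4 (0.67 ± 0.16), Per3-Ch22 (0.67 ± 0.14), Nr1d2-Ch2 (0.58 ± 0.18), Nr1d1-Ch6 (0.57 ± 0.18) and Ciart-Ch14 (0.51 ± 0.16). Per2-Ch14 was lower in DD (-0.92 ± 0.23). At hour 13 Per3-Ch22 was higher (0.63 ± 0.14), and Per2-Ch14 (-1.10 ± 0.23) and Per2-Ch3 (-0.76 ± 0.19) were lower. At hour 17 the PAR bZIP factor Hlf-Ch1 was lower (-0.54 ± 0.16), and at hour 21 Nr1d2-Ch27 (-0.55 ± 0.14) and Per3-Ch22 (-0.44 ± 0.14) were. After scaling, the differences at hour 13 were 0.69, -1.03 and -0.69 and passed, Nr1d2-Ch27 at hour 21 was -0.34 ± 0.07 (adjusted p = 0.00214), and neither Hlf-Ch1 at hour 17 (-0.37 ± 0.16, adjusted p = 0.134) nor Per3-Ch22 at hour 21 (-0.23 ± 0.11, adjusted p = 0.164) passed. At hour 9 the OT samples held 45493 inferred counts on average in DD and 28955 in LD, and the part of this in the calls was not tested. The median over all transcripts was 0.18 at hour 9, -0.05 at hour 13, -0.16 at hour 17 and -0.23 at hour 21. After scaling, 27 tests passed (14 higher, 13 lower). At hour 9 there were 13 of 41 (31.7%), 6 higher and 7 lower in DD, against 8 higher and 1 lower as deposited. Arntl1-Ch10, Arntl1-Ch26, CKIe-Ch3, CKIe-Ch6, Cry3-Ch22 and Per2-Ch3 were called at hour 9 only after scaling, all lower in DD. Of the 13 calls, 7 were among the 9 named here. The exceptions were Nr1d1-Ch6 (0.36, adjusted p = 0.0687) and Nr1d2-Ch2 (0.37, adjusted p = 0.116), and the others were 0.70 for Tef-Ch3, 0.66 for Tef-Ch6, 0.54 for Per1-Ch11, 0.46 for Per1-Ch4, 0.46 for Per3-Ch22, 0.31 for Ciart-Ch14 and -1.13 for Per2-Ch14.

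**Figure D4:**
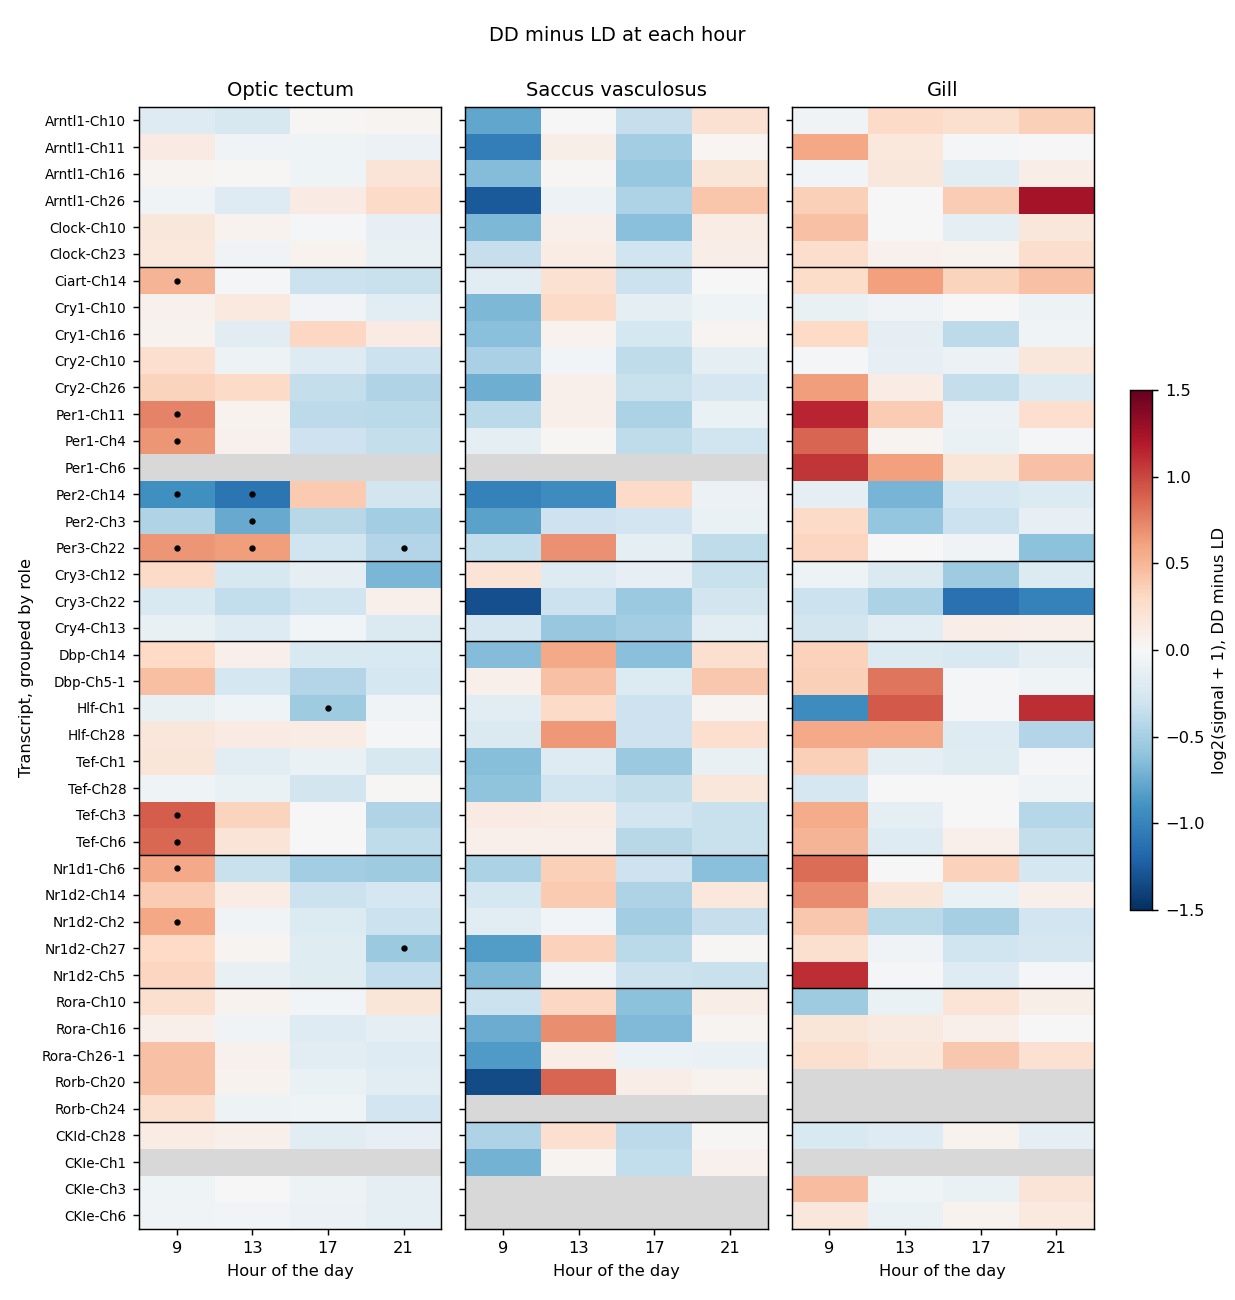
DD minus LD in log2(signal + 1) (colour) for each transcript (y axis, ordered by role) at each hour (x axis) in OT, SV and gill, with a black dot where the adjusted p was under 0.05 and grey where a transcript was not tested. All dots are in the OT and 9 of them at hour 9, and the SV column of hour 9 is lower in DD for most transcripts, with a median of -0.62.

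The scaling of a sample cancels in the ratio of 2 duplicates. In the OT, 2 of 15 pairs (13.3%) differed in their ratio over the dark hours. The log2 ratio of Rora-Ch10 to Rora-Ch16, members of the ROR activators, was 0.98 in DD and 0.80 in LD (difference 0.19 ± 0.04, adjusted p = 0.00264 in limma). That of Arntl1-Ch10 to Arntl1-Ch16 was -0.35 in DD and -0.21 in LD (difference -0.14 ± 0.05, adjusted p = 0.0427), which was not called in 12 of 24 fits that each left out 1 fish. In the exact permutation test the Rora pair passed (adjusted p = 0.00206) and this Arntl1 pair did not (adjusted p = 0.0731). The course of the ratio, a test chosen after the data had been seen, differed in 3 of 15 pairs. It was higher in DD for Per2-Ch14/3 (0.93 ± 0.31, adjusted p = 0.0384) and lower for Arntl1-Ch11/26 (-0.44 ± 0.09, adjusted p = 0.00105) and Cry1-Ch10/16 (-0.47 ± 0.15, adjusted p = 0.0337). For the Per1 pair the difference in course of the ratio was -0.10 ± 0.07 and for the Tef-Ch3/6 pair it was -0.12 ± 0.06, and neither passed.

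In the SV no transcript passed for level (0 of 38, 0%), hour dependence (0 of 38, 0%), course (0 of 38, 0%), single hours (0 of 152, 0%) or pair ratio (0 of 13, 0%) in limma. At an unadjusted p under 0.05 there were 8, 0, 1, 20 and 1, and the exact permutation test called none for level, course or pair ratio. The level was lower in DD in 36 of 38 transcripts, with a median of -0.22. After scaling, which sets the mean difference to 0, it was lower in 20 of 38, with a median of -0.01. Without fish B16 of DD at CT13, 11 transcripts passed for level, all lower in DD, without fish B18 of DD at CT17 1 did, and without hour 13 there were 4. Without hour 9, where DD samples of the SV had 6727 inferred counts on average and LD samples 18878, none passed and 1 had an unadjusted p under 0.05.

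The SV transcripts with the smallest p for level were Cry3-Ch22, Tef-Ch1 and Cry4-Ch13, each with an adjusted p of 0.118 in limma. Cry3-Ch22, a cryptochrome outside the list of repressors used here, had a median signal of 29.8 in DD (16.7 to 79.5) and 53.4 in LD (32.3 to 82.6). Its difference was -0.62 ± 0.21, and -0.41 ± 0.14 after scaling. At hour 9 the signals of its 3 fish were 24.5, 25.5 and 34.1 in DD and 54.9, 77.7 and 82.6 in LD, while at hour 13 the DD fish spread from 16.7 to 79.5 around the LD fish (33.0 to 65.4). At hour 9 the DD and LD fish did not overlap in 21 of 38 SV transcripts (55.3%), all with DD below LD. Tef-Ch1 had a median of 2281 in DD and 3064 in LD (-0.37 ± 0.13), and Cry4-Ch13 one of 52.2 and 69.0 (-0.38 ± 0.14), which after scaling were -0.16 ± 0.07 and -0.17 ± 0.13. Per2-Ch14 and Per2-Ch3 had differences of -0.44 ± 0.24 and -0.38 ± 0.16 in the SV, and the Per1 duplicates of -0.20 ± 0.13 (Per1-Ch4) and -0.23 ± 0.14 (Per1-Ch11). These values are as deposited, beside a median of -0.22 over all 38 transcripts, and none passed. The median standard deviation between fish of 1 group and hour was 0.40 in DD and 0.31 in LD in the SV, against 0.15 and 0.21 in the OT.

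In the gill, 2 of 40 transcripts (5%) passed for level, 1 higher and 1 lower in DD. Per1-Ch6, a further Per1 transcript, had a median of 70.6 in DD (46.4 to 124), against 53.3 in LD (27.7 to 74.0), a difference of 0.58 ± 0.15 (adjusted p = 0.0259 in limma). At hour 9 its signals were 59.6, 91.0 and 124 in DD and 27.7, 41.3 and 60.2 in LD, and at hour 13 they were 63.6, 77.8 and 88.8 in DD and 40.8, 54.0 and 54.8 in LD. In the gill the 3 DD and 3 LD fish did not overlap in 8 of 40 transcripts (20%) at hour 9, 4 (10%) at hour 13, 2 (5%) at hour 17 and 12 (30%) at hour 21. For Per1-Ch6 the DD fish lay above the LD fish at hour 13, and at hours 9, 17 and 21 the groups overlapped. Cry3-Ch22 had a median of 10.2 in DD (5.24 to 18.9), against 17.5 in LD (9.82 to 46.8), a difference of -0.73 ± 0.20 (adjusted p = 0.0259), at a signal near the lower end of the table. Arntl1-Ch26, an activator at a similarly low signal, had the next smallest p, with a median of 14.5 in DD and 9.55 in LD (0.49 ± 0.17, adjusted p = 0.0726 in limma). At hour 21 its DD fish (15.0, 18.7 and 20.9) lay above its LD fish (5.80, 6.80 and 8.76). Neither Per1-Ch6 nor Cry3-Ch22 passed without fish A11, A19, B16 or B21, without hour 21 or in the exact permutation test. Of 24 fits that each left out 1 fish, Per1-Ch6 passed in 20 and Cry3-Ch22 in 18. Among the other settings, Per1-Ch6 passed in 6 of 10 and Cry3-Ch22 in 5 of 9.

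Hour dependence passed in 1 of 40 gill transcripts (2.5%), Hlf-Ch1 (adjusted p = 0.0188 in limma). Its signals at hour 9 were 85.1, 94.0 and 249 in DD and 166, 266 and 325 in LD, at hour 13 133, 158 and 196 in DD and 65.8, 86.7 and 105 in LD, and at hour 21 119, 123 and 162 in DD and 51.1, 60.3 and 75.5 in LD. DD thus lay above LD without overlap at hours 13 and 21, and the groups overlapped at hours 9 and 17. This call was lost without fish A10, A11, B10 or B11, all of hour 9, and after scaling. No gill transcript passed for course (0 of 40, 0%) or at single hours (0 of 160, 0%) in limma, while 4 and 17 had an unadjusted p under 0.05 and the exact permutation test called none for course.

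As in the OT, Per1-Ch4 and Per1-Ch11 were higher in DD at hour 9 in the gill, and so was Per1-Ch6, which had no values in the OT. None of these passed as deposited. The median difference at hour 9 over all 40 gill transcripts was 0.29, with 27 above 0. Per1-Ch11 had 163, 185 and 326 in DD and 61.7, 116 and 126 in LD (difference 1.14 ± 0.31), Per1-Ch4 had 168, 188 and 266 in DD and 105, 109 and 119 in LD (0.87 ± 0.24), and Per1-Ch6 differed by 1.08 ± 0.31, each with an adjusted p of 0.0618 in limma. The DD and LD fish of Per1-Ch11 and Per1-Ch4 did not overlap at this hour, which held for 8 of 40 gill transcripts (20%). After scaling the differences were 0.88, 0.61 and 0.82, with adjusted p of 0.0386, 0.0480 and 0.0480, and 3 of 40 transcripts (7.5%) passed at this hour. As deposited, no single hour passed in the gill, either with all fish or without fish A11, whose LD sample at this hour had 3868 inferred counts. Without fish A9 or fish B9 there were 6 calls. The calls after scaling were not tested with a fish left out. Over the 4 hours the level differed by 0.42 ± 0.16 for Per1-Ch11 (adjusted p = 0.0887) and by 0.20 ± 0.12 for Per1-Ch4 (adjusted p = 0.430). Of 14 gill pairs 1 (7.14%) differed in ratio in limma, Nr1d2-Ch14/27 (-3.16 in DD and -3.47 in LD, difference 0.31 ± 0.09, adjusted p = 0.0433), and it was lost in 16 of 24 fits that each left out 1 fish. The pair Nr1d2-Ch2/5 went the other way (-0.41 ± 0.17, adjusted p = 0.155 in limma). In the exact permutation test both pairs passed, with adjusted p of 0.0224 for Nr1d2-Ch14/27 and 0.0243 for Nr1d2-Ch2/5.

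**Figure D5:**
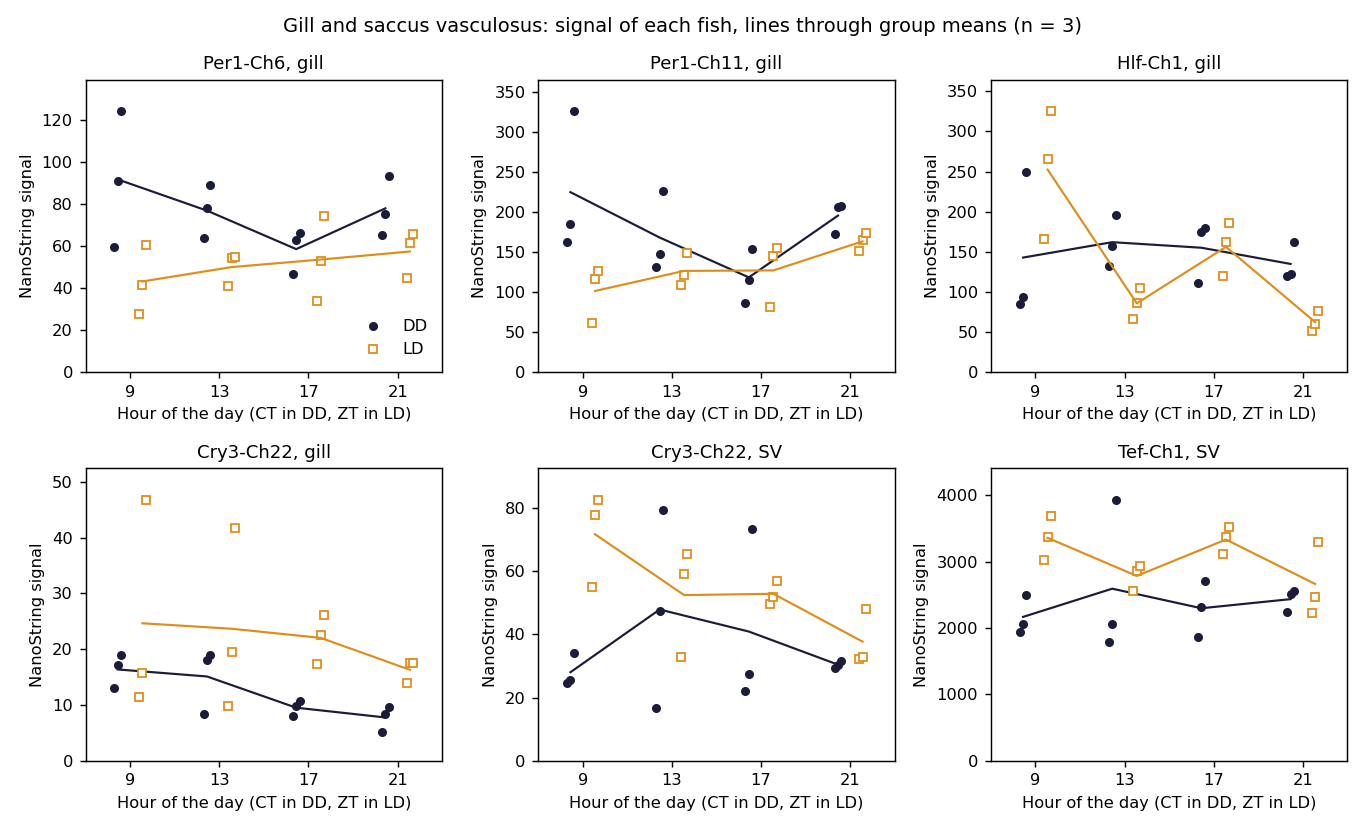
Signal (y axis) of Per1-Ch6, Per1-Ch11, Hlf-Ch1 and Cry3-Ch22 in the gill and of Cry3-Ch22 and Tef-Ch1 in the SV at hours 9 to 21 (x axis), 1 point per fish and a line through the group means, n = 3 fish per group and hour. Per1-Ch11 in the gill is higher in DD at hour 9, at 163 to 326 against 61.7 to 126 in LD, and the means of Cry3-Ch22 are lower in DD at each hour in both tissues.

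Whether DD minus LD differed between tissues was tested in 1 fit of 2 tissues at a time. No transcript passed between OT and SV (0 of 37, 0%), OT and gill (0 of 39, 0%) or SV and gill (0 of 36, 0%) in limma, with 1, 7 and 8 at an unadjusted p under 0.05. The Per2-Ch3 difference, for which the OT gave -0.54, the SV -0.38 and the gill -0.19, is thus not shown to be particular to the OT. Because the tissues came from the same fish, the fit was also made with fish as a block, in which 6 transcripts passed between OT and gill, 2 between SV and gill and 0 between OT and SV. All 6 had the lower DD minus LD in the OT, among them Arntl1-Ch26 (-0.46), Ciart-Ch14 (-0.45), Hlf-Ch1 (-0.45), Per1-Ch11 (-0.43) and Arntl1-Ch10 (-0.32). The 2 between SV and gill were Arntl1-Ch26 (-0.84) and Per1-Ch11 (-0.65), lower in the SV. The fit with the block was made on deposited values only. The median DD minus LD for level was -0.04 over 41 OT transcripts, 0.05 over 40 gill transcripts and -0.22 over 38 SV transcripts. Any shift shared by the transcripts of a tissue was not removed from the differences with the block. Without the block, no transcript passed after scaling. The gill signal of Arntl1-Ch26 was near the lower end of the table.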

How the data were processed

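Optic tectum, saccus vasculosus and gill samples were profiled with a NanoString CodeSet. The authors used nSolver 4.0 to normalise barcode counts to spiked positive controls, and the result was deposited as signal, with no transformation. All 48 entries had gene IDs that were found in RefSeq, and names follow the study's tables (Cry3 is listed as Cry1bb in the deposited table). RefSeq places the gene ID of Per1-Ch6 on ssa07 and that of Rora-Ch26-1 on ssa11, and gives that of Cry4-Ch13 the symbol cry5. In 189 of 189 samples all values above 1 were whole multiples of 1 step (tolerance 0.0051), from which total counts were computed. No pair of samples held identical values. Transcripts that the study lists both in its CodeSet and as expressed were tested on log2(signal + 1) with limma 3.58.1 in R 4.3.3 (lmFit, eBayes). Each fit had 8 means of group by hour per tissue and 24 samples, with contrasts for level, course, single hours and hour dependence. Benjamini-Hochberg adjustment was made over all tested transcripts (times hours for single hours) at 0.05. Tables and figures used Python 3.11.15, pandas 2.3.3, numpy 2.4.6 and matplotlib 3.10.9. The fits were tested on data simulated from the OT means and spread, with independent noise for each transcript. Shifts shared by all transcripts of a sample were not simulated, nor were the SV and the gill. The exact permutation test was two-sided and permuted groups within hours (160000 arrangements).

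Shared fish names mark the same fish across tissues, so the pairing is real. Deviations from group means had a median correlation over transcripts of 0.39 between OT and gill (23 fish), 0.06 between OT and SV (23 fish) and 0.04 between SV and gill (24 fish). Fish of 1 group and hour were separate animals, and within a tissue no fish appears in both groups.

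Named transcripts were those with the largest called differences in level (up to 10), in course or hour dependence (5), in pair ratio and in tissue difference (3 each), the 3 with the smallest p where fewer than 3 passed for level, their duplicates, and Per1-Ch4 and Per1-Ch11 in each tissue. The remaining names, such as the calls at single hours and those by role, were given after their values were seen. The samples, lists and tests were chosen with earlier results of these data known. The labels give no run or cartridge. The result of 1 transcript is not reported here and was left out of the figures, though the fits and the counts over all transcripts include it.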

Additional observations from a re-analysis of the deposited data

Results flagged for a closer look

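Results are given here where the DD minus LD difference itself differed between hours of the dark, by the limma test of group by hour. In the OT 12 transcripts passed this test, and those named were Per3-Ch22 (adjusted p = 2.69e-05), Per1-Ch11 (0.000489), Tef-Ch3 (0.00094), Tef-Ch6 (0.00103) and Per2-Ch14 (0.00191). The first 4 of these had a lower course in DD and Per2-Ch14 a higher one. Per3-Ch22 in DD lay above LD without overlap at hours 9 and 13 and below it without overlap at hours 17 and 21. Over all 41 OT transcripts the groups did not overlap in 29.3%, 24.4%, 24.4% and 43.9% at these hours. Among these, DD lay above LD in 10, 3, 2 and 2 transcripts and below it in 2, 7, 8 and 16. In the gill 1 transcript passed, Hlf-Ch1 (adjusted p = 0.0188), with DD minus LD of -0.94 at hour 9, 0.92 at hour 13, -0.02 at hour 17 and 1.11 at hour 21. Groups of 3 and of 12 fish were not tested for single outlying samples.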

How the results depend on the processing

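The 24 results on named transcripts and pairs were compared with other settings (other than leaving out a fish). Of 164 comparisons, 139 kept direction and side of the threshold, 21 lost the threshold and 0 reversed, also with a fish left out. Hour dependence has no direction and could not reverse, and scaling cannot change a pair ratio. Results not past the threshold counted as kept when they stayed so. Several OT transcripts were counted for both course and hour dependence. Per2-Ch3 was called in 10 of 10 settings in the OT. Numbers of transcripts past the threshold moved by over 1.5 times in these cases. For level in the OT (3 in the fit reported) there were 7 after scaling by the geometric mean, 9 without hour 9, 6 without hour 21 and 1 in the exact permutation test. Single hours in the OT gave 27 after scaling against 16, and pair ratios 1 against 2 in the exact permutation test, which called 11 against 15 for course. For level in the SV there were 4 without hour 13 and 1 with all 63 samples in the fit, against 0. For level in the gill (2) there were 4 after scaling, 1 with a pseudocount of 10, 1 with a median signal of at least 50, 4 with all 63 samples, 1 without hour 13, 1 without hour 17, 0 without hour 21 and 0 in the exact permutation test. Hour dependence in the gill (1) was 0 after scaling and 0 with all 63 samples. Single hours in the gill (0) were 4 after scaling, 4 with a median signal of at least 50 and 4 with all 63 samples. Pair ratios in the gill (1) were 0 for course, 0 with a pseudocount of 10, 2 with all 63 samples and 2 in the exact permutation test. With fish as a replicate block, which pairs the tissues, the tissue difference was 6 for OT against gill and 2 for SV against gill, against 0 and 0, and stayed at 0 for OT against SV.

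Leaving out each fish in turn gave 2 to 5 for level, 9 to 17 for hour dependence, 12 to 18 for course, 12 to 19 for single hours and 1 to 3 for pair ratio in the OT. In the SV it gave 0 to 11 for level and 0 to 0 for the others. In the gill it gave 0 to 3 for level, 0 to 1 for hour dependence, 0 to 0 for course, 0 to 6 for single hours and 0 to 3 for pair ratio. Tissue differences were 0 to 0 for OT against SV, 0 to 2 for OT against gill and 0 to 9 for SV against gill. Level in the OT was 5 without fish A10 of LD at ZT9. In the gill, single hours were 6 without A9 or B9, 4 without A18 and 3 without A10 or B10, and level was 1 without A13 or B18. SV against gill was 9 without SV fish B16, and 2 or 3 without SV fish A22, A23, B11 or B18 or gill fish A9 or B10, and OT against gill was 2 without gill fish A9 or A18. The cause of these changes was not tested. A planned test on recovered counts was not run. Inferred total counts were lowest in the gill and in the SV samples of DD at CT9.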
